A study of Homo sapiens with 11 samples.

Results

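The AMIGO genes (AMIGO1, AMIGO2 and AMIGO3) encode a small family of cell adhesion proteins, and all 3 were found by symbol among the 23327 named rows of the authors' deposited table. The table comes from RNA-seq of liver tumours seeded by 500000 PANC1 LM3 cells given through the spleen on day 1, with the tumours taken on day 21. PANC1 is a long-established line from a human ductal carcinoma of the pancreas, and PANC1 LM3 is a derivative selected for liver metastasis. The cells carried a control hairpin (shCTRL, 4 libraries, labelled WT) or 1 of 2 hairpins against NPTX1 (shNPTX1_3, 3 libraries, and shNPTX1_4, 4 libraries, labelled NPTX1 knock down). All groups share the PANC1 LM3 background, the spleen route and the day of collection. The labels call the libraries biological replicates without tying each to an animal, so p-values measure only how these libraries vary, and some of that may be technical. The host strain and the sequence that the control hairpin targets were not stated in the labels.

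AMIGO stands for amphoterin-induced gene and open reading frame. The proteins cross the membrane once and carry leucine-rich repeats and an immunoglobulin domain on the outside, through which they bind each other on neighbouring cells. AMIGO1 was found as a gene that amphoterin (HMGB1) induces in neurons, and it is an auxiliary subunit of the Kv2 potassium channels. AMIGO2 supports neuronal survival, binds the kinase PDPK1 upstream of AKT, and is known from work on gastric carcinoma and on tumour cell adhesion to liver endothelium. AMIGO3 can stand in for LINGO1 in the Nogo receptor complex, which restrains axon growth.

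The 250 bases before the start of each gene are shown because the 3 genes differed in how far they moved between the tumour groups. Where a gene had several starts, the most upstream was used. The stretches lie just before that start, and whether they bear on the difference was not tested. They are RefSeq sequences of GRCh38.p14, 5′ to 3′ on the strand of the gene, and all 3 symbols were matched. AMIGO1 is at chr1:109509728-109509977, AMIGO2 at chr12:47079960-47080209 and AMIGO3 at chr3:49719685-49719934, each on the minus strand. Capitals mark matches, on either strand, to 6 motifs. They are the TATA box, spelled TATAAA, the box spelled CCAAT, the GC box, spelled GGGCGG, the AP-1 motif, spelled TGANTCA, the CRE, spelled TGACGTCA, and the E-box, spelled CACGTG; no match overlapped another.
AMIGO1: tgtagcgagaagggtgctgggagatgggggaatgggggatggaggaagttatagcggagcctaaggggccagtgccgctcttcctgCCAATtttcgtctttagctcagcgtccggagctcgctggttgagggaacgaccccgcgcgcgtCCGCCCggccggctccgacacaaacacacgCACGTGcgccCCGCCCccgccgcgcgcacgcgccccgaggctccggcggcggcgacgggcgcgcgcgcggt
AMIGO2: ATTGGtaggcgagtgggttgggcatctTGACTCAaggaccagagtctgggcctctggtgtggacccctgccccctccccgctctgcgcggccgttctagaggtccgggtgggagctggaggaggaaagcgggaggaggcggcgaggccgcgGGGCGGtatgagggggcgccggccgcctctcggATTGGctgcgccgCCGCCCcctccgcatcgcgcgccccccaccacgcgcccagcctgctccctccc
AMIGO3: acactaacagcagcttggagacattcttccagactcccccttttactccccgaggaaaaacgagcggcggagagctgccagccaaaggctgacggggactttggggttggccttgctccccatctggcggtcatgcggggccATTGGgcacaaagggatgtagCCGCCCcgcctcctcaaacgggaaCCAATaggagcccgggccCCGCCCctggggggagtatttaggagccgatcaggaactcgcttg
All 3 stretches are rich in G and C, at 70.8% for AMIGO1, 73.2% for AMIGO2 and 61.6% for AMIGO3, against a median of 57.6% over 27305 promoters. Each holds 2 GC boxes, which 42.2% of all such stretches hold at least once, and at least 1 CCAAT box, which 33.0% hold. The AP-1 match, found in 6.57% of all stretches, is in AMIGO2 alone among the 3, from 223 to 217 bases before the start. The E-box match, found in 6.46%, is in AMIGO1 alone. No TATA box or CRE was matched in any of them. A match is a run of letters and not a measured binding site.

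In the control tumours AMIGO2 and AMIGO3 were expressed at moderate levels and AMIGO1 was close to the lower end of the table. In the authors' deposited table the mean of shCTRL was 137.7 normalized counts for AMIGO2, 89.9 for AMIGO3 and 10.8 for AMIGO1. Normalized counts were taken as reads on a gene divided by the size factor of the library. Not all low group means fit that form, as given with the processing. Among the 21154 named genes above 0 in the control tumours, AMIGO2 stood at the percentile 47.2, AMIGO3 at 41.8 and AMIGO1 at 22.9. These percentiles take no account of transcript length. The members were therefore also compared per kb of the longest GENCODE 29 transcript. It has 3763 bases for AMIGO2, 2862 for AMIGO3 and 5088 for AMIGO1. On that scale the control levels computed from the authors' deposited table were 36.6, 31.4 and 2.12 normalized counts per kb. AMIGO2 was thus 1.16 times AMIGO3 in control tumours, a gap with no spread over libraries to set it against. The AMIGO3 level is also uncertain because the gene overlaps others, as given below. AMIGO1 was lowest in each of the 3 groups.

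AMIGO2 was the member that moved. In the authors' deposited table it averaged 137.7 normalized counts over the control libraries, 653 with shNPTX1_3 and 980.5 with shNPTX1_4. Both knockdown means lay far above control, and shNPTX1_4 was the higher of the 2. The authors' comparison of all 7 knockdown libraries with the 4 control libraries gave a log2 fold change of 2.60 (standard error 0.18) per the authors' deposited table (adjusted p = 3.23e-46 from DESeq2), or 6.07-fold. The 95% interval from that standard error runs from 4.78-fold to 7.71-fold. Of the 18426 genes tested there, 27.3% were called at an adjusted p under 0.05, 15.8% higher and 11.5% lower, and 1 of the 3 AMIGO genes was called. Total-count scaling, which set the mean knockdown total equal to the control total, lowered every log2 fold change by 0.07 and kept the standard errors. It left 2132 genes higher and 3017 lower, in place of 2913 and 2114, and AMIGO2 stayed called. Among the 2740 genes called higher at 2 CPM or more (CPM is counts per 1000000 reads, and 2 CPM was 38.6 normalized counts), AMIGO2 ranked 15 by fold change, and by p-value it ranked 10 among all named genes.

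The rise of AMIGO2 was seen with each hairpin. The ratio of group means per the authors' deposited table was 4.74-fold for shNPTX1_3 and 7.12-fold for shNPTX1_4 over control, or 2.24 and 2.82 on the log2 scale with a pseudocount of 1. These 2 ratios share the control libraries and are given side by side only. The value of AMIGO2 in single libraries could not be read from its group means. Since normalized counts are never negative, no control library can have held more than 4 times the control mean, 551 normalized counts. Both knockdown group means per the authors' deposited table exceed that bound. This does not show that each knockdown library did, since a single library can carry a group mean. Between the hairpins AMIGO2 was higher by 0.59 on the log2 scale in shNPTX1_4 than in shNPTX1_3, without an error. Of 14131 genes at 2 CPM or more, 8.82% had hairpin means at least as far apart in either direction.

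AMIGO3 did not pass the test. Its group means per the authors' deposited table were 89.9, 92.8 and 82.2 normalized counts for shCTRL, shNPTX1_3 and shNPTX1_4. The log2 fold change was -0.07 (standard error 0.14) per the authors' deposited table (adjusted p = 0.761 from DESeq2), and the 95% interval runs from 0.787-fold to 1.16-fold. That interval leaves out any change near the size of the one in AMIGO2. It takes the AMIGO3 counts as they are, and these are uncertain because AMIGO3 overlaps GMPPB and RNF123, as given below. The log2 ratios to control were 0.05 with shNPTX1_3 and -0.13 with shNPTX1_4, and with every group scaled to the same total the first of these became -0.05. In shNPTX1_3 the reads of single libraries could be rebuilt from the group mean, which lies above the range checked, as described with the processing. They gave 98.5, 98.6 and 81.3 normalized counts (118, 61 and 44 reads), a mean of 92.8 ± 9.97 (SD, n = 3). The 3 libraries lay close together, and the means of the other 2 groups lay inside their range. In shCTRL and shNPTX1_4 several sets of reads, 4 and 8, matched the mean, so no library values are given for these groups.

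AMIGO1 was low and did not pass the test. Its group means per the authors' deposited table were 10.8, 8.20 and 13.9 normalized counts for shCTRL, shNPTX1_3 and shNPTX1_4. The log2 fold change was 0.10 (standard error 0.43) per the authors' deposited table (adjusted p = 0.891 from DESeq2), and the 95% interval runs from 0.598-fold to 1.92-fold. AMIGO1 is the one member whose reads could be rebuilt in every library. The control libraries held 27, 20, 5 and 10 reads, or 12.3, 10.1, 6.33 and 14.4 normalized counts, with a mean of 10.8 ± 3.43 (SD, n = 4). The shNPTX1_3 libraries held 9, 6 and 4 reads, or 7.51, 9.70 and 7.39 normalized counts, with a mean of 8.20 ± 1.30 (SD, n = 3). The shNPTX1_4 libraries held 14, 19, 5 and 18 reads, or 10.4, 18.7, 5.67 and 20.9 normalized counts, with a mean of 13.9 ± 7.12 (SD, n = 4).

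The 3 groups overlapped for AMIGO1. Both the lowest and the highest of the 11 libraries belonged to shNPTX1_4, whose libraries spread widest. An exact two-sided permutation test of the difference between the 7 knockdown and 4 control libraries, 0.688 normalized counts, gave p = 0.842 over 330 relabellings. It pooled the 2 hairpins, whose means lay on either side of control. The same exact test between the hairpins, with shNPTX1_4 higher by 5.70 normalized counts, gave p = 0.314 over 35 relabellings. Adjusted over these 2 tests by Benjamini-Hochberg, the exact permutation p-values were 0.842 and 0.629. The smallest p these designs allow are 0.00303 and 0.0286. Each library held 4 to 27 reads of AMIGO1, and how much of their spread is counting error was not tested. The plot of single libraries shows the overlap.

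**Figure D1:**
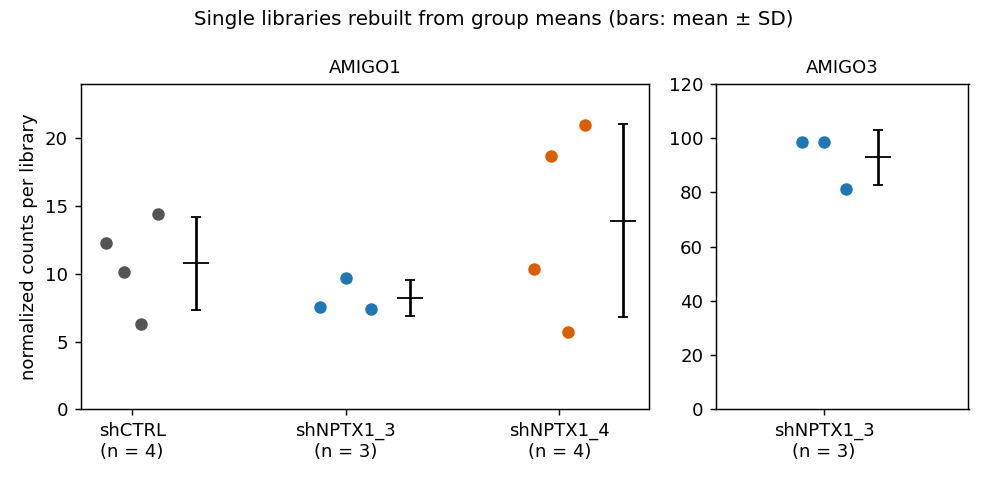
Single libraries rebuilt from group means, in normalized counts per library, for AMIGO1 in all 3 groups (left) and AMIGO3 in shNPTX1_3 (right, on another scale). Points are libraries and bars are mean ± SD; the AMIGO1 libraries of shNPTX1_4 run from 5.67 to 20.9 and enclose those of both other groups.

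The make-up of the family differed between the tumour groups. Per kb, computed from the authors' deposited table, AMIGO2 made up 52.2% of the summed AMIGO level in shCTRL, 83.6% in shNPTX1_3 and 89.2% in shNPTX1_4. AMIGO3 made up 44.8%, 15.6% and 9.84%, and AMIGO1 3.02%, 0.777% and 0.936%. The summed level behind these shares was larger in both knockdown groups, and neither AMIGO1 nor AMIGO3 was called. Per kb AMIGO2 was 5.35 times AMIGO3 in shNPTX1_3 and 9.07 times in shNPTX1_4, against 1.16 times in control tumours. The overlap of AMIGO3 with other genes makes its part in these shares and ratios uncertain. In bulk RNA, more cells that express a gene and more RNA of it per cell cannot be told apart.

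**Figure D2:**
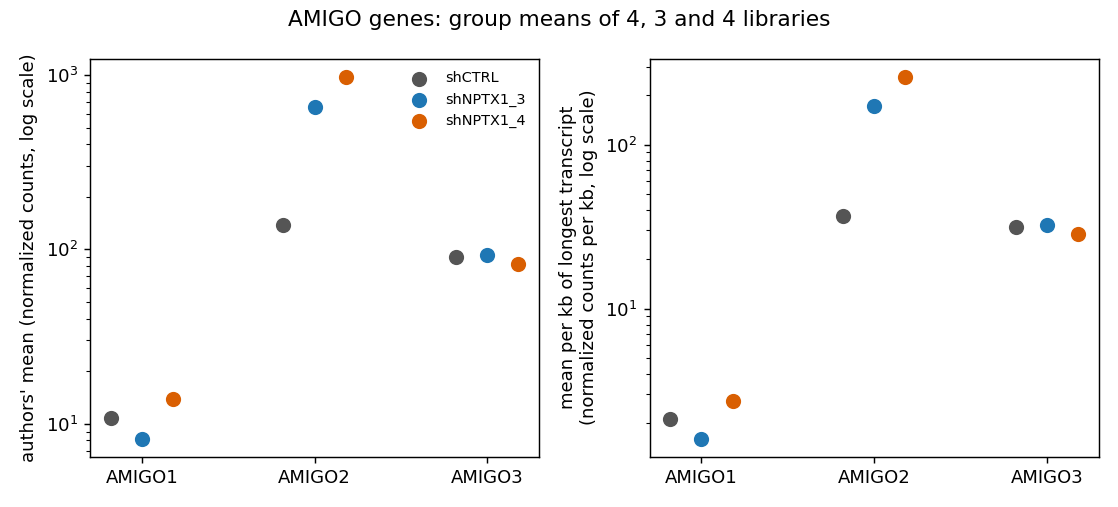
Group means of AMIGO1, AMIGO2 and AMIGO3 per the authors' deposited table, in normalized counts (left) and per kb of the longest transcript (right), both on log axes; points are means of 4, 3 and 4 libraries without an SD. AMIGO2 goes from 137.7 in shCTRL to 653 and 980.5, while the AMIGO3 points lie between 82.2 and 92.8.

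The 5 genes nearest to AMIGO2 were sought among 4584 other called genes at 2 CPM or more, by the distance between their pairs of log2 ratios to control. This rests on 3 group means only and says nothing of shared function or control. The nearest was NTN4, a secreted netrin, at a distance of 0.11, with means of 65.1, 288 and 467 normalized counts for shCTRL, shNPTX1_3 and shNPTX1_4 per the authors' deposited table. SDR16C5, a retinol dehydrogenase, followed at 0.27, with 28.3, 158 and 183 per the authors' deposited table. TPD52L1, a tumour protein D52 relative, lay at 0.43, the water channel gene AQP1 at 0.52 and the glycosyltransferase gene GALNT5 at 0.53. The genes were picked on the ratios of the 2 hairpins, so a like order of the hairpins follows partly from the choice. NTN4 and TPD52L1 had, like AMIGO2, a higher mean in shNPTX1_4 than in shNPTX1_3, without an error. For TPD52L1 the means were 185 with shNPTX1_3 and 401 with shNPTX1_4, in normalized counts per the authors' deposited table. AQP1 had nearly level means of 155 and 163 with the 2 hairpins per the authors' deposited table.

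**Figure D3:**
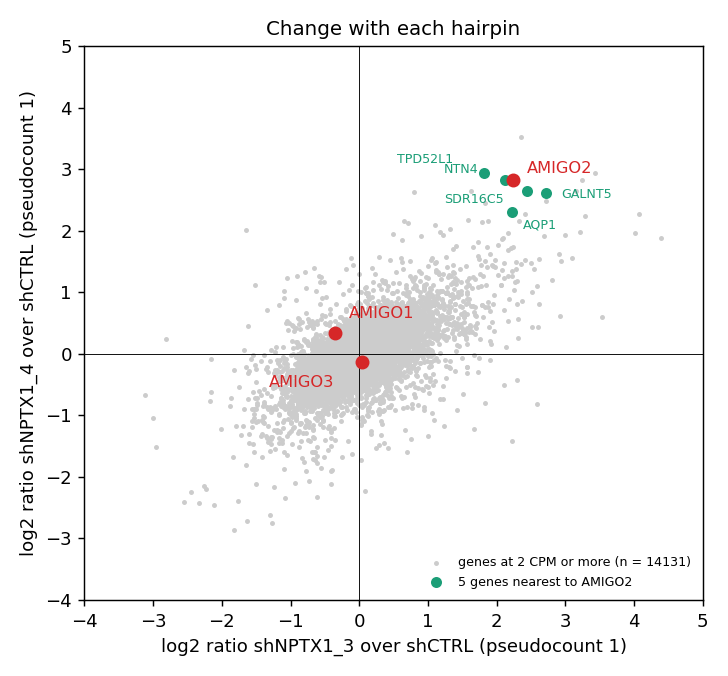
Log2 ratio to control with shNPTX1_3 (x axis) and shNPTX1_4 (y axis), pseudocount 1, for 14131 genes at 2 CPM or more (grey), the 5 genes nearest to AMIGO2 (green) and the AMIGO genes (red; AMIGO1 is under 2 CPM); 3 genes lie outside the axes, and both axes share the control libraries. AMIGO2 lies at 2.24 and 2.82, and AMIGO1 and AMIGO3 lie near the origin.

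Genes that AMIGO proteins are known to work with, and the signalling genes beside them, were described from a list of 17 that also holds the hairpin target NPTX1. In the authors' deposited table, of these genes, 15 were tested, 2 were higher, 6 were lower and 7 were not called, 53.3% called against 27.3% of all genes. Their median log2 fold change was -0.06, against -0.01 over all genes tested. NPTX1, which encodes a secreted pentraxin, was listed as the hairpin target and not as a known partner. Its fall is the check of the labels. Without it 14 genes were tested, 2 higher and 5 lower, 50.0% called, with a median of -0.04. NPTX1 averaged 103 normalized counts with shCTRL, 46.5 with shNPTX1_3 and 38.4 with shNPTX1_4, a log2 fold change of -1.26 (standard error 0.24, adjusted p = 3.65e-06 from DESeq2, all per the authors' deposited table). Its rebuilt values in shNPTX1_3 were 72.6, 37.2 and 29.6 normalized counts, all below the control mean, though the rebuilding was checked only at lower means.

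On the side of AMIGO2, PDPK1 fell while AKT1, AKT2 and PTK7 were not called. PDPK1, the kinase that phosphorylates AKT, fell to 0.797-fold, with means of 1124, 907 and 893 normalized counts per the authors' deposited table (adjusted p = 8.68e-05 from DESeq2). PDPK1 was named after its values were seen. AKT1 and AKT2 were not called, with log2 fold changes of 0.06 and -0.01 per the authors' deposited table. PTK7, a receptor-like pseudokinase reported to bind AMIGO2, was not called either, with a log2 fold change of -0.07 (standard error 0.06) per the authors' deposited table.

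On the side of AMIGO1, a receptor gene of amphoterin fell while the amphoterin gene itself was not called. HMGB1 was high and level, with means of 16235, 16831 and 16488 normalized counts per the authors' deposited table (adjusted p = 0.828 from DESeq2). AGER, which encodes a receptor of amphoterin, fell by 0.66 on the log2 scale, from 114 to 69.3 and 76.7 normalized counts per the authors' deposited table (adjusted p = 0.00183 from DESeq2).

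On the side of AMIGO3, the Nogo receptor gene RTN4R and its co-receptors NGFR and TNFRSF19 were not called, with log2 fold changes of -0.06, 0.24 and 0.06 per the authors' deposited table. The means of NGFR went apart between the hairpins, at 44.3 normalized counts for shCTRL, 95.6 for shNPTX1_3 and 20.4 for shNPTX1_4 per the authors' deposited table, and its standard error was 0.59. LINGO1, whose place AMIGO3 can take, rose by 0.47 on the log2 scale, from 82.4 to 129.7 and 105.7 normalized counts per the authors' deposited table (adjusted p = 0.00676 from DESeq2). The ligand gene RTN4 (Nogo) rose by 0.19 per the authors' deposited table, a call lost under total-count scaling. The ligand gene OMG fell by 0.50, from 285 to 189 and 212 normalized counts per the authors' deposited table (adjusted p = 0.0169 from DESeq2). MAG, a myelin ligand, had means under 1 normalized count.

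**Figure D4:**
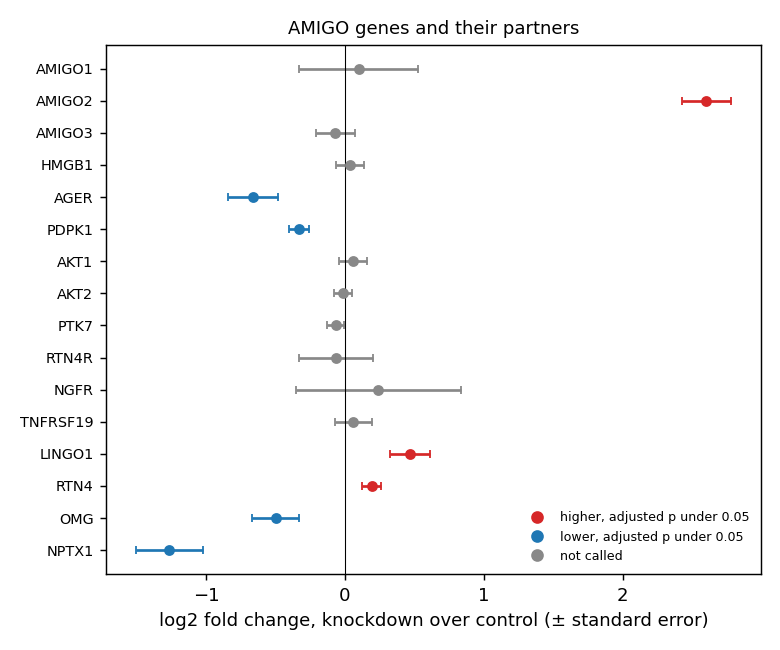
Log2 fold change, 7 knockdown over 4 control libraries, with its standard error, for the AMIGO genes and the partner genes described in the text, per the authors' deposited table; colour marks direction and call. AMIGO2 lies at 2.60, NPTX1 at -1.26 and AGER at -0.66, while AMIGO1 and AMIGO3 cross 0.

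Relatives of the AMIGO proteins were called in both directions. Of 31 genes for other proteins that join leucine-rich repeats with immunoglobulin domains, 24 were tested per the authors' deposited table, and 3 were higher and 5 lower, 33.3% called against 27.3% of all genes, with a median log2 fold change of -0.17. LRIG1 and LRIG3, which belong to a family known for restraining growth factor receptors, rose by 1.24 and 0.88 on the log2 scale per the authors' deposited table, and LRIG2 fell by 0.30. LRIG1 was far higher with shNPTX1_3 than with shNPTX1_4, at 980.3 against 428 normalized counts per the authors' deposited table, the reverse of the order in AMIGO2. ADGRA2, an adhesion receptor of the vasculature, fell by 1.07 per the authors' deposited table, and the synaptic adhesion genes LRFN1 and LRFN5 fell by 0.58 and 0.50. The fifth lower gene, LRFN3, was under 2 CPM and was named after its values were seen.

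Of 20 genes for membrane proteins with outer leucine-rich repeats and no immunoglobulin domain, 17 were tested per the authors' deposited table, and 2 were higher and 5 lower, 41.2% called against 27.3% of all genes, with a median log2 fold change of -0.36. SLITRK4, a synaptic adhesion gene, rose by 0.96, with means of 1378, 3743 and 1879 normalized counts per the authors' deposited table (standard error 0.33, adjusted p = 0.0198 from DESeq2). TPBG, which encodes the trophoblast glycoprotein, rose by 0.38 per the authors' deposited table, a call lost under each other scaling. FLRT1, SLITRK5, ELFN1 and LRRTM2 fell by 0.70, 0.69, 0.53 and 0.53 per the authors' deposited table. LRRTM4, the fifth lower gene, was under 2 CPM and was named after its values were seen. AMIGO2 had a larger log2 fold change than any called member of these 2 lists, of which LRIG1 at 1.24 was the highest per the authors' deposited table.

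Genes beside the AMIGO genes were listed from the order of the RefSeq table, 20 in all. In the authors' deposited table, of these, 19 were tested, with 6 higher and 1 lower, 36.8% called against 27.3% of all genes. Around AMIGO2, 4 of 7 were higher and 0 lower, where 15.8% of all genes were higher. PCED1B, which overlaps AMIGO2 on the other strand, rose by 1.31 on the log2 scale (standard error 0.37, adjusted p = 0.00321 from DESeq2) per the authors' deposited table. Its means there were 8.67, 16.7 and 21.6 normalized counts, the same order of groups as in AMIGO2 at a far lower level. In GENCODE 29 the 2 genes share 349 of the 4245 bases of AMIGO2. Whether strand was used in counting was not stated in the labels, and without strand the reads of that stretch cannot be told apart.

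The amino acid transporter genes SLC38A4 and SLC38A2 near AMIGO2 were higher too. SLC38A4 had means of 112, 153 and 322 normalized counts for shCTRL, shNPTX1_3 and shNPTX1_4 and rose by 1.17 on the log2 scale (standard error 0.28) per the authors' deposited table. SLC38A2 was far more abundant and rose by 0.42 per the authors' deposited table. RAPGEF3, a cAMP-activated exchange factor, rose by 0.50 per the authors' deposited table, a call lost under total-count scaling. SLC38A1, RPAP3 and ENDOU were not called, with log2 fold changes of 0.03, 0.11 and 0.50 per the authors' deposited table.

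In GENCODE 29 AMIGO3 lies wholly within RNF123 on the other strand. There it also shares 2852 of its 2862 bases with GMPPB on its own strand, so its counts are uncertain. By the RefSeq coordinates AMIGO3 overlaps RNF123, while GMPPB lies beside it without overlap. GMPPB, a mannose pyrophosphorylase, rose by 0.41, with means of 127, 164 and 169.5 normalized counts per the authors' deposited table. RNF123, a ubiquitin ligase, was not called, at -0.26 (adjusted p = 0.067 from DESeq2) per the authors' deposited table, and fell past the threshold under each other scaling. BSN, a presynaptic scaffold gene nearby, fell by 0.70 per the authors' deposited table. Around AMIGO1, which overlaps no other gene in GENCODE 29, 1 of 6 neighbours was called. GNAI3, a G protein subunit gene, rose by 0.26 per the authors' deposited table, a call lost under total-count scaling.

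**Figure D5:**
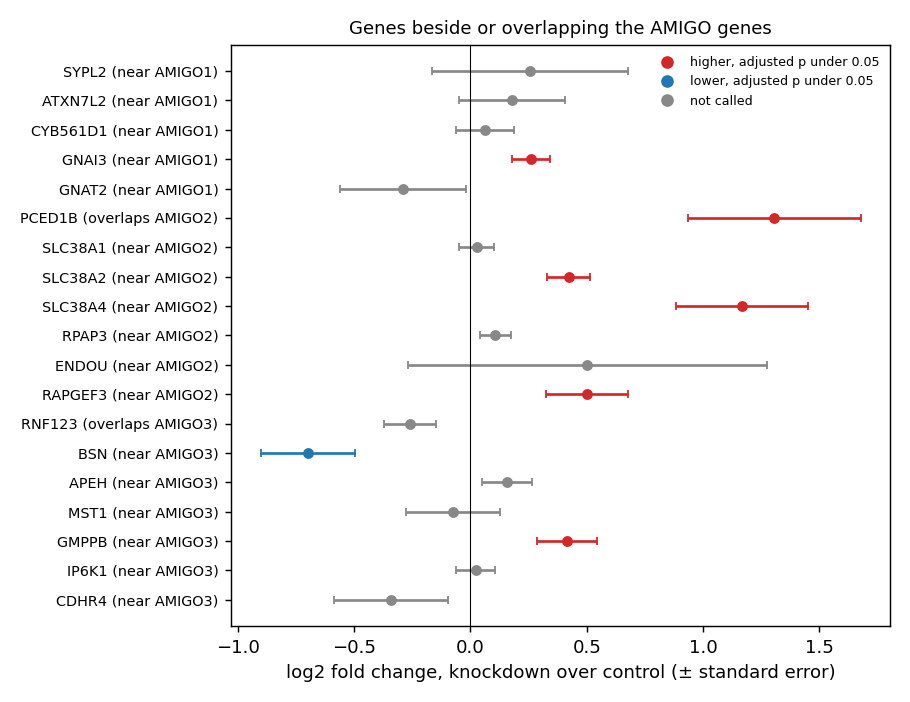
Log2 fold change, 7 knockdown over 4 control libraries, with its standard error per the authors' deposited table, for the 19 tested genes that overlap or neighbour an AMIGO gene; colour marks direction and call. PCED1B (1.31) and SLC38A4 (1.17), both at AMIGO2, lie farthest to the right.

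The tumour label and other cell types were set beside the rise of AMIGO2. The 7 carcinoma markers had summed levels of 79217, 127213 and 99602 normalized counts for the control, shNPTX1_3 and shNPTX1_4 tumours per the authors' deposited table, and 4 of 7 were called higher (KRT7, KRT8, KRT18 and KRT19), where 15.8% of all genes were higher and 11.5% lower. Of these markers, VIM, KRT8 and KRT18 were abundant in every group of the authors' deposited table, while KRT7 was under 2 CPM. The 9 endothelial markers had summed levels of 483 (shCTRL), 525 (shNPTX1_3) and 464 (shNPTX1_4) normalized counts per the authors' deposited table, with none of 8 tested called. The 8 leukocyte markers summed to 918, 1013 and 815 there, with none of 7 called. The 9 hepatocyte markers summed to 317, 467 and 231, with APOA1, itself under 2 CPM, called higher and ALB under 1 normalized count in each group. The 9 stellate and fibroblast markers summed to 1661, 6364 and 3409 per the authors' deposited table, with 3 of 8 tested called higher: COL3A1, LUM and PDGFRA. Of these, LUM and PDGFRA were under 2 CPM. COL3A1 alone had means of 731, 5517 and 2247 normalized counts per the authors' deposited table, and the other 8 summed to 929, 847 and 1162. COL1A2 had lower means with both hairpins, at 74.3, 17.8 and 17.5, and COL1A1 had 725, 701 and 1019, and neither was called per the authors' deposited table. The 6 nerve and Schwann cell markers summed to 47.5, 21.7 and 38.4, with ELAVL4 at 0. The part of these markers, or of other cells, in the AMIGO2 level was not tested, and how mouse reads were handled was not stated in the labels.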

How the data were processed

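RNA from 11 tumour samples was sequenced with a TruSeq library kit, per the labels' protocols. The submitters' processing notes name STAR 2.7.6a, featureCounts 2.0.0, MultiQC 1.9, DESeq2 1.24 and the builds hg19 and mm39, without their roles. The deposited columns headed with the group names were taken as a signal, the authors' mean normalized counts per group. The headers do not state this. The deposited log2 fold change, its standard error, the Wald score and the p-value and adjusted p were taken as the authors' DESeq2-style comparison of 7 knockdown with 4 control libraries. Of 23434 rows, 107 with no name, a date as a name or a repeated name were left out.

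A gene was called where its deposited adjusted p was under 0.05. Ratios between group means used a pseudocount of 1, which understates changes of low genes. Intervals on a fold change are 95% normal intervals from the deposited standard error.

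Library values were rebuilt from the low group means, where a read of 1 library gives a fixed step. Up to a mean of 20 normalized counts, 66.0% of the shCTRL values, 61.8% of shNPTX1_3 and 64.2% of shNPTX1_4 were whole reads within the printed rounding, against at most 0.0517% of values moved at random. As over 30% were not whole, no count test was run. A gene's libraries are given only where exactly 1 set of reads matched and chance would give under 0.01. For AMIGO1 chance gives at most 0.00137 sets. Which library carries which replicate number is unknown, and libraries are listed deepest first and lettered A to D within a group. The steps gave totals, in units of 1000000 gene reads, from 13.0 to 41.2 for the control libraries, 10.8 to 24.0 for shNPTX1_3 and 16.6 to 26.1 for shNPTX1_4. The method was tested on simulated data in which every mean was built from whole reads. That test did not cover values that were not whole, as over 30% were here. The simulated means it scored all lay below 20 normalized counts, where the check for whole reads also stopped. The shNPTX1_3 means of AMIGO3 and NPTX1, 92.8 and 46.5, lie above that range. Python 3.11.15, numpy 2.4.6, pandas 2.3.3 and scipy 1.17.1 were used.

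The members and gene lists were chosen with earlier results of these data known. Named genes are the members, overlapping genes, called neighbours, uncalled partners, up to 5 called genes at 2 CPM or more a list and direction, and the 5 genes nearest to a called member. Alternatives were other scalings, adjustment sets, thresholds and pseudocounts, and, added after seeing the data, the rebuilt libraries. RefSeq coordinates are GRCh38.p14, another build than the authors', and serve to place the printed sequences; the order of genes in the RefSeq table also gave the neighbours. Values of some genes of the partner list are not reported here, though the list's counts include them.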

Additional observations from a re-analysis of the deposited data

How the results depend on the processing

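AMIGO2 stayed called under total-count scaling, median centring, both other adjustment sets and a threshold of 0.01, with log2 fold changes from 2.54 to 2.60, and AMIGO1 and AMIGO3 stayed uncalled wherever tested (AMIGO1 is under 2 CPM and was not in that adjustment set). Total-count scaling lowered every log2 fold change by 0.07 and turned the split over all genes from 2913 higher and 2114 lower to 2132 and 3017. It turned small uncalled values to -0.0072 for AKT1, -0.0037 for CYB561D1, -0.031 for HMGB1, -0.044 for IP6K1, -0.040 for SLC38A1 and -0.0065 for TNFRSF19, and the shNPTX1_3 ratio of AMIGO3 to -0.048; median centring turned IP6K1 to -5.95e-04. Under total-count scaling 1 partner was higher in place of 2. Of the relatives without immunoglobulin domains, 1 was higher in place of 2 under total-count scaling, median centring and adjustment over all rows with a p. Under both scalings 2 neighbours were lower in place of 1. Neighbours called higher were 4 under total-count scaling and 5 at a threshold of 0.01, in place of 6. At a threshold of 0.01, 1 partner was higher, 2 relatives with immunoglobulin domains were lower, 0 and 2 relatives without them were higher and lower, and 1899 and 1249 genes in all were higher and lower. Beyond the threshold and the shift themselves, the cause was not tested. Of the 5 genes nearest to AMIGO2, 4 were shared with a pseudocount of 0. Leaving out each rebuilt library, the log2 ratio of AMIGO1 ran from -0.12 to 0.26 around 0.09 and turned negative without control library C or without shNPTX1_4 library B or D. Leaving out each rebuilt shNPTX1_3 library, the log2 ratio of AMIGO3 ran from -0.08 to -0.04 around -0.05; no other library of AMIGO3 and none of AMIGO2 could be left out. No paired analysis was possible because the deposited columns are group means and carry no replicate numbers. Of the members AMIGO1 had the lowest means, resting on 62, 19 and 56 reads in the 3 groups, which limits its precision.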
